A study of Drosophila melanogaster with 30 samples.

Results

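The response of the fly head to overexpression of Bchs in glia was measured by RNA sequencing of adult Drosophila melanogaster heads, taken 22 to 31 h after eclosion. The comparison covers 10 of the 30 libraries of the series. In 5 libraries the flies carried the glial driver together with the transgene (repo-Gal4/UAS-bchs::HA), and in 5 they carried the driver alone (repo-Gal4/+). Both groups therefore share the repo-Gal4 driver, and they differ in the UAS-bchs::HA transgene, which adds an HA-tagged copy of bchs. The glia dataset also holds 5 libraries with the transgene and no driver (UAS-bchs::HA/+), and the neuron dataset of the same series holds neuronal overexpression (nSyb-Gal4/UAS-bchs::HA) and its driver control (nSyb-Gal4/+); both are used here only beside the values of the glial comparison. The labels name neither the insertion sites nor the sex of the flies, and they do not say whether the libraries came from separate crosses or vials, so p-values measure the spread between these libraries, which may be technical.

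Bchs (Blue cheese) is a large BEACH domain protein, the fly counterpart of human WDFY3 (ALFY), an adaptor that links protein aggregates and other cargo to the autophagy machinery. In the Gal4/UAS system a yeast transcription factor, here made in cells that use the promoter of the glial gene repo, switches on any gene placed behind its UAS binding sites. Glia of the fly head wrap neurons, recycle transmitters, clear debris and, in the outer perineurial and subperineurial layers, form the blood-brain barrier, which is sealed by septate junctions. The heads were sequenced whole, so every value below mixes glia with neurons, photoreceptors, muscle, fat body and cuticle-forming cells. A lower level of a cell type's RNA can come from fewer such cells or from less RNA per cell, and these cannot be told apart here.

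Levels are CPM, counts in a gene per 1000000 counts in genes after TMM scaling. Counts in genes ranged from 57380252 to 78691702 in overexpression libraries and from 28685786 to 84208964 in repo-Gal4 libraries. The libraries differed in how long transcripts were counted. The length slope is the change in a library's log2 CPM, relative to the median library, for each doubling of a gene's exon length. It was -0.03, -0.11, -0.19, 0.02 and -0.25 in overexpression libraries 1 to 5, against 0.03, 0.04, -0.66, -0.04 and 0.03 in repo-Gal4 controls 1 to 5. repo-Gal4 control 3 thus stood far below the rest of its group, and overexpression libraries 2, 3 and 5 lay below every other repo-Gal4 control. Overexpression library 3 also stood apart by its 11025 genes with a count, against 12403 to 14029 in the other 9 libraries. Glial and photoreceptor markers varied little between libraries. The mean log2 CPM of 20 glial markers was 7.65 to 7.74 in overexpression heads and 7.47 to 7.67 in repo-Gal4 heads. That of 21 photoreceptor genes was 9.54 to 9.85, against 9.59 to 10.0005. Neuronal markers varied far more, from 6.49 to 9.01 in overexpression heads and from 5.51 to 9.22 in repo-Gal4 heads. Each count of changed genes is therefore given with all 10 libraries and with the 9 that remain without repo-Gal4 control 3.

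**Figure D1:**
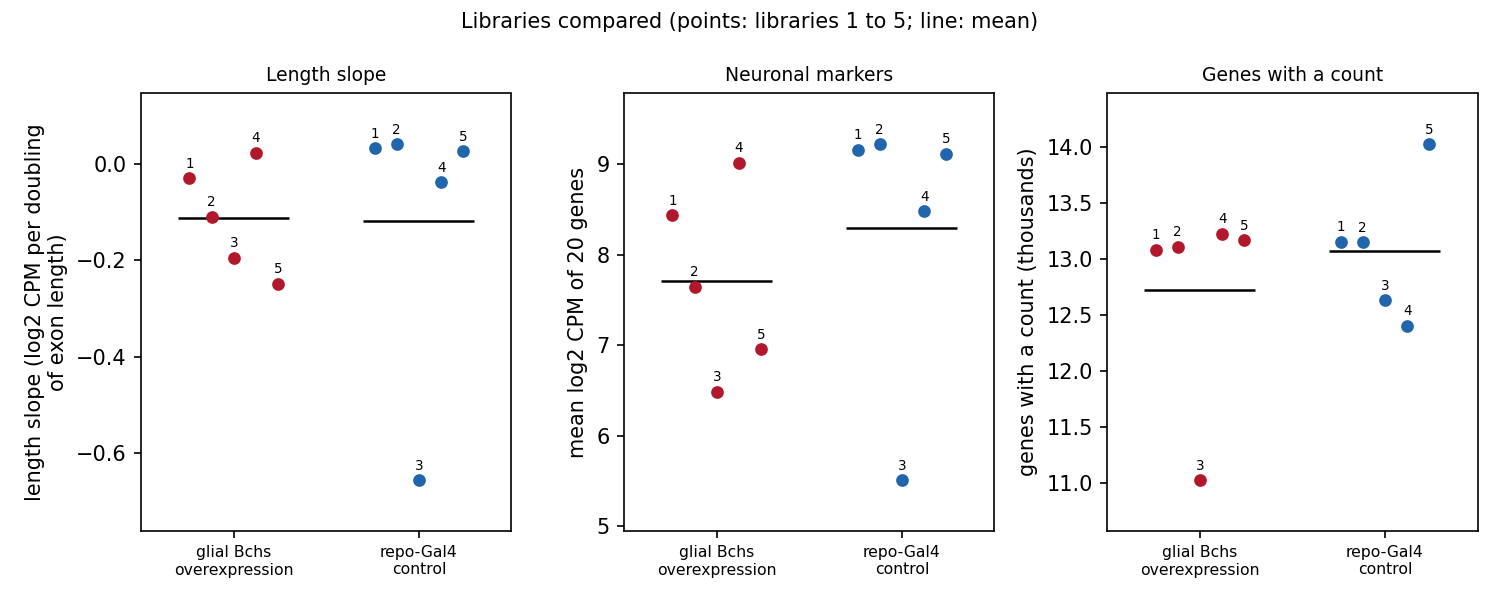
Length slope (log2 CPM per doubling of exon length), mean log2 CPM of 20 neuronal marker genes and number of genes with a count (axis in units of 1000) for glial Bchs overexpression (red, left) and repo-Gal4 control (blue, right); each numbered point is a library and the line is the group mean. repo-Gal4 control 3 has the lowest length slope (-0.66) and the lowest neuronal markers (5.51), and overexpression library 3 has the fewest genes with a count (11025).

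The overexpressed gene itself stood well above its control. bchs (FBgn0043362, 2L:5907169-5922776, plus strand) was at 1290.0, 1219, 1226, 1304 and 1136 CPM in overexpression heads, against 200.4, 188, 36.1, 181 and 194 CPM in repo-Gal4 heads. The groups did not overlap, and repo-Gal4 control 3, with 36.1 CPM, lay far under the other 4 controls. The exon length of bchs is 12155 bases, so it is among the long transcripts that this library counted less. The ratio of the means was 7.72 with all libraries and 6.47 without repo-Gal4 control 3. On the log2 scale it was higher by 2.95 (SE 0.40, edgeR adjusted p = 0.0113), and by 2.70 (SE 0.07, adjusted p = 6.43e-08) without that control. A two-sided exact permutation test of log2 CPM gave p = 0.00794, the smallest that 5 against 5 libraries can give. In UAS heads, with the transgene and no driver, bchs was at 218, 17.9, 204, 218 and 206 CPM, so that UAS control 2, whose length slope was -0.97, was the low library there.

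Transgenes commonly carry a copy of white (w), the eye pigment transporter gene, as a marker, although the labels do not say so of these. w (FBgn0003996, X:2790599-2796466, minus strand) was at 239.8, 240.5, 260.3, 233 and 263 CPM in overexpression heads, against 196, 194, 263, 194 and 197 CPM in repo-Gal4 heads and 6.42, 9.78, 7.29, 8.38 and 5.91 CPM in UAS heads. Apart from repo-Gal4 control 3, every overexpression library lay above every repo-Gal4 library. The log2 fold change against repo-Gal4 control was 0.24 (SE 0.12, adjusted p = 0.887) over all libraries and 0.35 (SE 0.06, adjusted p = 0.0128) without control 3.

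Over the 10774 genes tested, 78 passed an adjusted p of 0.05, which is 0.724% of them. Of these, 49 were higher in overexpression heads (0.455%) and 29 lower (0.269%), and 47 changed by at least 2-fold (33 higher, 14 lower). The 2 groups of libraries did not overlap in any of the 78, and they did not overlap in 384 of all genes tested (3.56%). Without repo-Gal4 control 3, 311 of 10849 genes passed (2.87%), 224 higher (2.06%) and 87 lower (0.802%). All 78 were among them, each with the same direction, and the median absolute log2 fold change of the calls was 0.61, against 1.15 for the 78. The larger set thus holds smaller changes: 77 of the 311 reached 2-fold. Leaving out any other single library lowered the count, to between 29 (without repo-Gal4 control 1) and 63 (without overexpression library 3). Of the 78 genes, 22 passed in all 10 of these fits, and 32 share exon sequence with another gene. If strand was not used, reads within the shared sequence could have been set aside as ambiguous and lost to both partners. The share of such overlaps over all genes tested was not computed, so the 32 do not set the called genes apart.

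**Figure D2:**
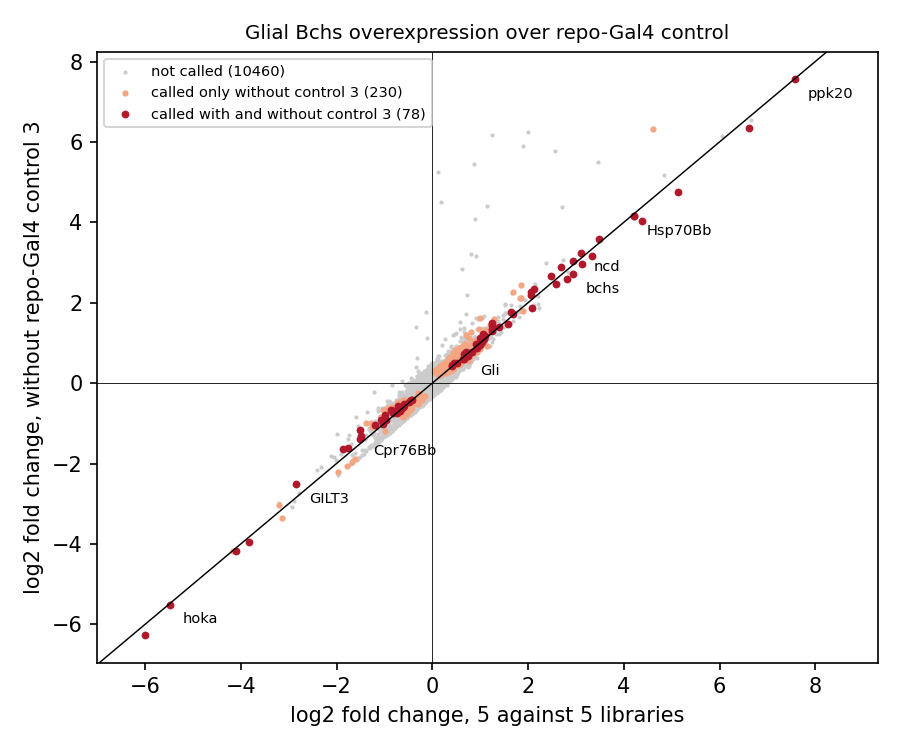
Log2 fold change of glial Bchs overexpression over repo-Gal4 control for each gene tested in both fits, with all 10 libraries (horizontal axis) and without repo-Gal4 control 3 (vertical axis); the diagonal marks equal values. The 78 genes called in both fits (dark red) lie near the diagonal, and genes called only without control 3 (orange) are mostly small changes.

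The heat shock gene Hsp70Bb had the smallest adjusted p of all genes in the fit of 10 libraries. Hsp70 proteins are chaperones that bind unfolded proteins, and the inducible copies are nearly silent in unstressed flies. Hsp70Bb (FBgn0013278, 3R:12505793-12508139, plus strand) was at 19.4, 18.9, 16.5, 26.1 and 17.4 CPM in overexpression heads, against 1.22, 1.18, 0.828, 1.09 and 0.972 CPM in repo-Gal4 heads. The lowest overexpression library was more than 10 times the highest control. This is a log2 fold change of 4.22 (SE 0.17, adjusted p = 2.88e-06), or 4.15 without repo-Gal4 control 3. UAS heads were at the level of repo-Gal4 heads, with 1.51, 1.13, 1.37, 1.82 and 1.17 CPM. Under the neuronal driver the log2 fold change of Hsp70Bb was 0.95 (adjusted p = 2.24e-04), and the glial effect exceeded the neuronal one by 3.28 (adjusted p = 9.68e-09).

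The fly genome holds several near-identical Hsp70 copies, and reads that align to more than 1 place were set apart before counting, so the level of a single copy is uncertain. Hsp70Ba (FBgn0013277, 3R:12465453-12467776, minus strand) was called as well, at 23, 19, 25, 32 and 30 counts in overexpression libraries, against 0, 1, 3, 1 and 5 counts in repo-Gal4 libraries, but UAS libraries, with 24, 5, 19, 22 and 32 counts, were at the overexpression level in 4 of 5. Hsp70Ab ran the other way round: it was at 6.70, 6.39, 6.30, 8.27 and 6.75 CPM in overexpression heads, at 5.12, 6.26, 6.79, 6.33 and 6.26 CPM in repo-Gal4 heads and at 0.530, 0.208, 0.753, 0.791 and 0.818 CPM in UAS heads, so it was high in both groups that carry the driver. Summed over the 6 copies in the files, Hsp70 was at 27.5, 26.3, 24.6, 37.0 and 25.6 CPM in overexpression heads, against 7.52, 8.55, 8.39, 8.83 and 8.38 CPM in repo-Gal4 heads. The groups did not overlap in this sum. Most of the difference came from Hsp70Bb, which averaged 19.6 CPM in overexpression heads and 1.06 CPM in repo-Gal4 heads. That copy had been picked for its change, so the sum is no separate evidence. It also leaves out reads that align to more than 1 copy. UAS heads had 1.94 to 3.70 CPM. Driver and UAS vectors often contain Hsp70 promoter or terminator sequence; the sources used here do not give the vectors, and the part of such sequence in these counts was not tested. Of 20 heat shock and chaperone genes tested, 2 were higher (Hsp70Bb and Hsp70Ba) and none lower with all libraries, where 0.455% of all genes were higher and 0.269% lower. The list had a median log2 fold change of 0.00, against -0.04 over all genes. Without repo-Gal4 control 3 the same 2 were higher, where 2.06% of all genes were higher and 0.802% lower. In that fit the small heat shock genes Hsp23 and Hsp67Bc were lower, by log2 fold changes of -0.42 and -0.53 (adjusted p = 0.0295 and 0.0361).

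**Figure D3:**
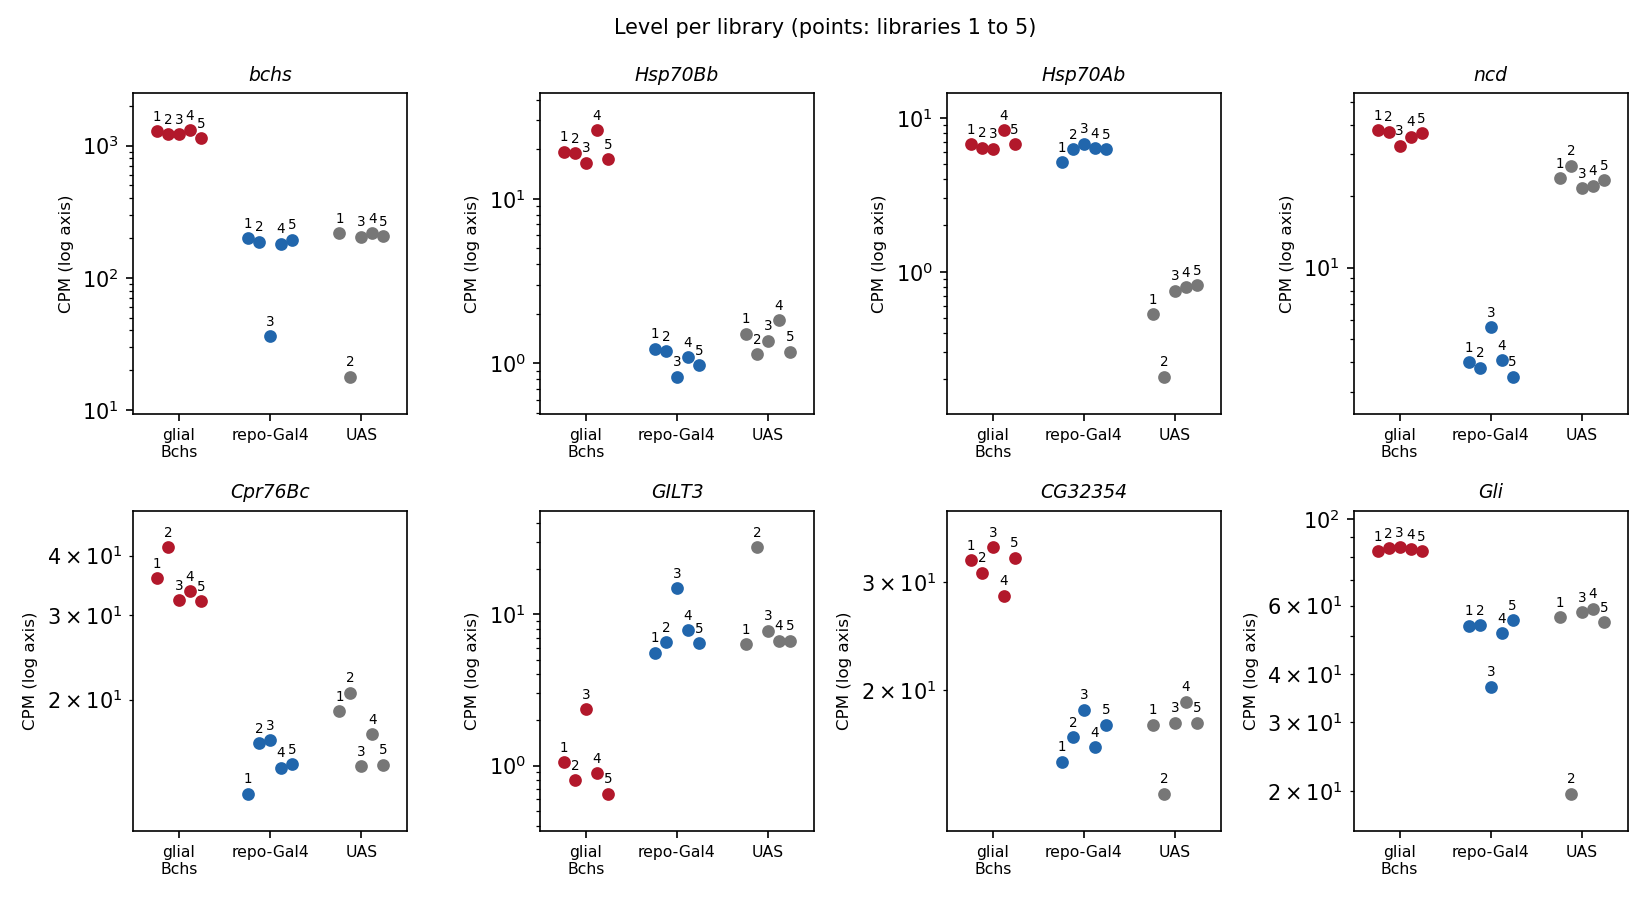
CPM (log axis) of 8 genes in each library of glial Bchs overexpression (red), repo-Gal4 control (blue) and UAS control (grey), with points numbered 1 to 5. For bchs, Hsp70Bb, Cpr76Bc, GILT3, CG32354 and Gli both control groups lie on the same side of the overexpression libraries, for ncd the UAS control lies near them (21.6 to 26.9 CPM), and for Hsp70Ab the repo-Gal4 control lies beside them.

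Several of the strongest increases were found at a similar level in UAS heads, which carry the transgene chromosome but no driver. ncd encodes a minus-end-directed kinesin of the mitotic and meiotic spindle. It (FBgn0002924, 3R:29804290-29807127, minus strand) was at 37.8, 37.3, 32.6, 35.6 and 36.9 CPM in overexpression heads, against 3.99, 3.79, 5.599, 4.08 and 3.48 CPM in repo-Gal4 heads, a log2 fold change of 3.10 (SE 0.14, adjusted p = 3.03e-06) and 3.25 without control 3. The groups were far apart, yet UAS heads had 23.8, 26.9, 21.6, 22.1 and 23.4 CPM. Under the neuronal driver ncd averaged 32.2 CPM in overexpression heads and 3.38 CPM in nSyb-Gal4 heads, a log2 fold change of 3.25, and the difference between the 2 effects was -0.13 (adjusted p = 0.9998). Against UAS heads without UAS control 2, ncd was higher by a log2 fold change of 0.68 (adjusted p = 2.63e-04).

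The same holds for genes of low level. ppk20, a member of the pickpocket family of sodium channel subunits (FBgn0039676, 3R:29666814-29668877, minus strand), had no count in any repo-Gal4 library and 132 counts over the 5 overexpression libraries, and was thus at least 38.6-fold higher when 3 counts over the group are taken as the floor. UAS heads had 0.290, 0.0347, 0.307, 0.228 and 0.339 CPM, next to 0.231, 0.272, 0.639, 0.196 and 0.499 CPM in overexpression heads. CG14000 (FBgn0031749, 2L:5908927-5910289, minus strand) lies inside bchs on the opposite strand and shares exon sequence with it. It had 169 counts over the overexpression libraries and 1 over the repo-Gal4 libraries, a ratio of 148 with a counting interval of 26.3 to 5896, and UAS heads had 0.605, 0.313, 0.599, 0.724 and 0.931 CPM, beside 0.725, 0.759, 0.181, 0.605 and 0.297 CPM in overexpression heads. lncRNA:CR46350 (FBgn0286030, 3R:9283875-9284525, plus strand) was at 0.708, 0.816, 0.653, 0.818 and 0.831 CPM in overexpression heads, against at most 0.0571 CPM in repo-Gal4 heads and 0.437 to 0.878 CPM in UAS heads. lncRNA:CR45680 was at 0.267 to 0.709 CPM in overexpression heads, at most 0.0571 CPM in repo-Gal4 heads and 0.434 to 1.38 CPM in UAS heads. CG6592 was at 0.546 to 1.44 CPM in overexpression heads, against 0.0125 to 0.110 CPM in repo-Gal4 heads (log2 fold change 4.21, adjusted p = 0.00912), with 0.538 to 1.48 CPM in UAS heads. CG9624, at 0.142 to 0.412 CPM in overexpression heads and at most 0.0623 CPM in repo-Gal4 heads, had 0.0868 to 0.282 CPM in UAS heads. PolQ, the DNA polymerase of theta-mediated end joining, and Dhc98D, a dynein heavy chain, were picked out after their values were seen. PolQ was at 9.15, 10.3, 12.7, 10.1 and 10.3 CPM in overexpression heads, 4.90, 4.88, 4.65, 5.31 and 5.75 CPM in repo-Gal4 heads and 11.4, 2.67, 10.2, 12.1 and 13.2 CPM in UAS heads. Dhc98D was at 6.78, 5.71, 9.43, 5.85 and 6.73 CPM in overexpression heads, 2.54, 1.90, 1.62, 2.64 and 2.85 CPM in repo-Gal4 heads and 9.79, 2.55, 9.67, 7.98 and 9.86 CPM in UAS heads. In these genes UAS heads, library 2 apart for some, were closer to overexpression heads than repo-Gal4 heads were. An effect of the transgene's expression and one of the chromosomes that came with it cannot be told apart for them from the comparison with repo-Gal4 control.

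The 10 genes that fell most ranged from log2 fold changes of -6.01 (lncRNA:CR46123) to -1.49 (Cpr76Bb). hoka, a transmembrane protein of the smooth septate junctions of gut epithelia (FBgn0035583, 3L:4898900-4900869, plus strand), was at 0.0165, 0, 0, 0.0178 and 0.119 CPM in overexpression heads, against 1.77, 1.68, 1.35, 1.09 and 1.98 CPM in repo-Gal4 heads and 1.10, 1.96, 1.67, 0.845 and 1.10 CPM in UAS heads. It fell by a log2 fold change of -5.48 (SE 0.71, adjusted p = 0.00934), passed in all 10 fits without a library, and had a neuronal value of -4.71 (adjusted p = 4.77e-08). GILT3, of the family of lysosomal thiol reductases (FBgn0039098, 3R:23677358-23678421, plus strand), was at 1.05, 0.802, 2.35, 0.889 and 0.653 CPM in overexpression heads, against 5.58, 6.53, 14.8, 7.84 and 6.44 CPM in repo-Gal4 heads. The groups did not overlap, the highest library of each being its number 3, and the log2 fold change was -2.84 (adjusted p = 0.0142), next to -2.85 under the neuronal driver. GILT3 passed in 7 of the 10 fits without a library. lncRNA:CR46123 (FBgn0267798, 3R:1366234-1366601, minus strand) had counts in 1 of the 5 overexpression libraries (0.0889 CPM), against 0.276 to 2.10 CPM in repo-Gal4 heads, and of the 10 fits without a library it passed in the 1 without repo-Gal4 control 3.

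antr (antares), which acts in the seminal fluid network that stores sex peptide, and CG30486 lie 29 bases apart on 2R. antr was at most 0.0475 CPM in overexpression heads, against 0.246 to 0.470 CPM in repo-Gal4 heads (log2 fold change -4.10, adjusted p = 0.0142). CG30486 had 7 counts over the overexpression libraries and 96 over the repo-Gal4 libraries, a ratio of 0.0640 with a counting interval of 0.0251 to 0.137. In UAS heads antr was at 0.139 to 0.353 CPM and CG30486 at 0.0537 to 0.181 CPM. CG34291 (FBgn0085320, 3R:26425290-26425781, minus strand) was at 3.00, 3.47, 5.66, 3.93 and 6.66 CPM in overexpression heads, against 17.4, 13.4, 25.5, 13.2 and 13.2 CPM in repo-Gal4 heads and 5.70, 24.4, 9.62, 8.72 and 9.22 CPM in UAS heads. Its UAS values, library 2 apart, lay below every repo-Gal4 value and reached into the overexpression range. St2, a sulfotransferase, was at 0.178 to 0.527 CPM in overexpression heads and 0.879 to 1.68 CPM in repo-Gal4 heads, with a log2 fold change of -1.77 (adjusted p = 0.0428), and passed in 1 of the 10 fits without a library. The antisense transcripts asRNA:CR44107 and asRNA:CR43454 were lower by log2 fold changes of -1.51 and -1.501 (adjusted p = 0.0467 and 0.0302). They overlap CG5835 and Nha2, and without strand their reads within the shared sequence cannot be told apart from those of the partner gene. CG5835 itself was lower, at 11.7, 12.2, 12.4, 12.9 and 13.3 CPM in overexpression heads, against 21.1, 23.2, 36.5, 21.6 and 21.4 CPM in repo-Gal4 heads (log2 fold change -0.99, adjusted p = 0.0201).

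Some neighbouring genes moved in opposite directions, whereas others, such as antr and CG30486, moved in the same direction. Cpr76Bb and Cpr76Bc encode cuticle proteins with a chitin-binding domain and lie 525 bases apart on 3L. Cpr76Bc (FBgn0036880, 3L:19520945-19527272, plus strand) was at 35.9, 41.6, 32.3, 33.7 and 32.1 CPM in overexpression heads, against 12.7, 16.2, 16.4, 14.4 and 14.6 CPM in repo-Gal4 heads, a log2 fold change of 1.24 (SE 0.10, adjusted p = 9.83e-04). Cpr76Bb (FBgn0036879, 3L:19519649-19520419, plus strand) was at 3.71, 3.94, 4.60, 2.79 and 3.73 CPM in overexpression heads, against 9.85, 10.6, 15.1, 7.98 and 9.22 CPM in repo-Gal4 heads, a log2 fold change of -1.49 (SE 0.19, adjusted p = 0.00912). Neither pair of groups overlapped, and both genes passed in all 10 fits without a library. UAS heads were near repo-Gal4 heads in Cpr76Bc (18.9, 20.7, 14.5, 16.9 and 14.6 CPM) and, library 2 apart, near overexpression heads in Cpr76Bb (5.64, 15.7, 3.69, 4.75 and 4.33 CPM). The neuronal driver gave a log2 fold change of 1.28 for Cpr76Bc (adjusted p = 7.24e-07) and -0.07 for Cpr76Bb (adjusted p = 0.781), and the glial minus neuronal difference was -1.41 for Cpr76Bb (adjusted p = 0.00672). Next to hoka, CG13705 (429 bases away, named after its values were seen) was higher, at 2.92, 4.28, 3.27, 1.71 and 1.54 CPM in overexpression heads and 0.721, 0.438, 0.920, 0.422 and 0.573 CPM in repo-Gal4 heads (adjusted p = 0.0217). Of 55 cuticle genes tested, Cpr76Bc and Cpr76Bb were the 2 called, where 0.724% of all genes were called. Without repo-Gal4 control 3, 4 of 57 were called, against 2.87% of all genes. Cpr49Aa was higher in addition (log2 fold change 0.97, adjusted p = 0.00819) and Cpr62Bc lower (-0.43, adjusted p = 0.0456).

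Among the genes with the smallest adjusted p without repo-Gal4 control 3, several of moderate size stood apart with little spread. CG32354 (FBgn0052354, 3L:8415857-8422205, minus strand) was at 32.6, 31.1, 34.2, 28.5 and 32.9 CPM in overexpression heads, against 15.3, 16.7, 18.6, 16.1 and 17.6 CPM in repo-Gal4 heads and 17.6, 13.5, 17.7, 19.1 and 17.7 CPM in UAS heads, a log2 fold change of 0.92 (SE 0.08, adjusted p = 0.00117). Under the neuronal driver its value was -0.20 (adjusted p = 0.0627), and the difference between the drivers was 1.13 (adjusted p = 1.29e-05). CG16898 (FBgn0034480, 2R:20003620-20005003, minus strand) was at 20.9, 22.97, 29.3, 23.3 and 30.4 CPM in overexpression heads, against 2.62, 4.38, 1.41, 2.11 and 3.86 CPM in repo-Gal4 heads, a log2 fold change of 3.14 (adjusted p = 0.00155). In UAS heads CG16898 was at 21.7, 1.55, 12.5, 8.53 and 17.2 CPM, so that, library 2 apart, each lay above every repo-Gal4 library. Against UAS heads without UAS control 2 its log2 fold change was 0.77 (edgeR adjusted p = 0.0910). CG7702 (FBgn0038638, 3R:18669390-18674679, plus strand) was at 10.3, 10.2, 9.29, 11.2 and 9.19 CPM in overexpression heads, against 5.09, 5.29, 4.48, 4.92 and 5.42 CPM in repo-Gal4 heads (log2 fold change 0.99, adjusted p = 0.00117). stops, a SOCS-box protein needed to end the photoreceptor response, fell. It (FBgn0086704, 3R:31158156-31169106, minus strand) was at 98.95, 101, 99.6, 97.5 and 109 CPM in overexpression heads, against 169, 170.4, 225, 158 and 165 CPM in repo-Gal4 heads, a log2 fold change of -0.81 (adjusted p = 0.0153), and it had the same direction under the neuronal driver (-0.75, adjusted p = 2.38e-06). Arc1, which encodes a retrotransposon-derived capsid protein that carries its own RNA between cells, was named after its values were seen. It was at 127, 128, 174, 171 and 159 CPM in overexpression heads, against 53.8, 54.3, 103, 60.4 and 46.4 CPM in repo-Gal4 heads, with repo-Gal4 control 3 nearest to the overexpression range. Its log2 fold change was 1.26 (adjusted p = 0.0344), and 1.51 without that control.

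Genes of the glial blood-brain barrier were among those that rose. Gli (Gliotactin), a protein of tricellular septate junctions, is needed to seal the barrier. It (FBgn0001987, 2L:15756002-15762758, minus strand) was at 82.9, 84.3, 84.7, 83.7 and 82.9 CPM in overexpression heads, against 53.2, 53.4, 37.05, 50.9 and 55.1 CPM in repo-Gal4 heads and 56.03, 19.7, 57.6, 58.9 and 54.4 CPM in UAS heads. The overexpression libraries lay within a narrow range above every control, and the log2 fold change was 0.75 (SE 0.12, adjusted p = 0.0171), or 0.67 (SE 0.04, adjusted p = 1.05e-04) without repo-Gal4 control 3. Mdr65, the P-glycoprotein-like ABC transporter that pumps xenobiotics out of the brain, was at 192, 187, 219, 167 and 187 CPM in overexpression heads, against 124, 124, 134, 106 and 113 CPM in repo-Gal4 heads (log2 fold change 0.66, SE 0.11, adjusted p = 0.0302). moody, a G protein-coupled receptor of subperineurial glia that organises the septate junctions, was at 188, 183, 212, 202 and 182 CPM in overexpression heads, against 132, 132, 92.5, 133 and 136 CPM in repo-Gal4 heads. Its log2 fold change of 0.63 missed the threshold with all libraries (adjusted p = 0.0701) and passed without repo-Gal4 control 3 (0.55, adjusted p = 0.00220). Of the 10 fits without a library, 3 called Gli, 2 called Mdr65 and 1 called moody. In each of these genes the 5 overexpression libraries lay above all 5 repo-Gal4 libraries. Under the neuronal driver, the log2 fold changes were 0.01 for Gli, 0.02 for Mdr65 and -0.03 for moody. The glial effect exceeded the neuronal one by 0.74 for Gli, 0.65 for Mdr65 and 0.67 for moody (edgeR adjusted p = 0.00662, 0.0341 and 0.0278).

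Of the 20 glial marker genes tested, Gli and Mdr65 were the 2 called with all libraries, and without repo-Gal4 control 3 moody joined them while Indy, a citrate transporter, was lower (log2 fold change -0.46, adjusted p = 0.00851). The median log2 fold change of the glial list was 0.05 with all libraries, against -0.04 over all genes, and 0.01 without control 3, the same as over all genes to 2 decimals. Septate junction and glial barrier genes were then collected in a list of 26, written after values of the calls had been seen; 8 of its members had been noticed among the calls, so its counts describe the family and are no independent evidence. With all libraries 2 were higher and none lower, where 0.455% of all genes were higher and 0.269% lower. Without repo-Gal4 control 3, 10 were higher and none lower, where 2.06% of all genes were higher and 0.802% lower, and the median log2 fold change was 0.30, against 0.01 over all genes tested. Of the 18 members not noticed before, 2 (Lac and pck) were higher and none lower, with a median of 0.13.

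By role, the claudins of the septate junction were led by kune, at 36.4, 34.8, 39.6, 40.7 and 37.03 CPM in overexpression heads, against 27.8, 29.4, 30.8, 30.04 and 30.3 CPM in repo-Gal4 heads (without control 3, log2 fold change 0.37, adjusted p = 0.00859). kune also differed between the glial and the neuronal effect, by 0.37 (adjusted p = 0.0159). The claudin pck was at 35.1 to 45.04 CPM in overexpression heads and, control 3 apart, below that range in repo-Gal4 heads (0.35, adjusted p = 0.0353), whereas the third claudin, sinu, missed the threshold (0.29, adjusted p = 0.0560). Of the Ly6 proteins that help assemble the junction, crim (0.48, adjusted p = 0.00580) and cold (0.51, adjusted p = 0.00691) were higher, and crok (0.51, adjusted p = 0.0598) and bou (0.25, adjusted p = 0.0743) missed the threshold. Tsf2 (melanotransferrin, an iron-binding junction component), udt and the adhesion protein Lac (Lachesin) were higher, by log2 fold changes of 0.43, 0.31 and 0.31 (adjusted p = 0.00527, 0.00976 and 0.0132). In crim, cold, Tsf2 and udt, as in pck, repo-Gal4 control 3 lay within the overexpression range, so the groups overlapped through it. Of the other core components, Nrg had a log2 fold change of -0.05 (0.22 with all libraries), Nrx-IV of 0.02, cora of 0.07 and nrv2 of 0.04, and Atpalpha and dlg1, both long, had -0.69 and -0.67, none of them past the threshold. Under the neuronal driver 0 of the 26 were called in either direction, in a comparison that called 15.8% of all genes (8.15% higher, 7.68% lower). The difference between the drivers was called for 4 of 26 (Gli, Mdr65, moody and kune), all higher, against 0.473% of all genes (0.282% higher, 0.191% lower). Set against UAS heads, which shares the overexpression libraries, 0 of 26 were called with all 5 UAS libraries, where 0.421% of all genes were called (0.311% higher, 0.110% lower). Without UAS control 2, 13 of 26 were higher and none lower, where 9.72% of all genes were called (7.15% higher, 2.56% lower). With the length slope as a covariate, 18 were higher and none lower over 10 libraries, where 8.21% of all genes were called (4.93% higher, 3.29% lower). With repo-Gal4 control 3 left out of that fit, 12 were higher and none lower, where 2.28% of all genes were called (1.48% higher, 0.793% lower). The counts for the difference, the UAS comparison and the length slope include the members noticed among the calls. They also use the same overexpression libraries, so they are no independent evidence for the list. A pair of further surface proteins, named after their values were seen, were called with all libraries: the integrin alpha chain scb, at 45.4, 40.8, 49.7, 57.2 and 42.2 CPM in overexpression heads and 30.5, 31.4, 24.1, 32.1 and 30.04 CPM in repo-Gal4 heads, and Reck, a membrane-anchored protease inhibitor, at 16.98, 17.2, 16.5, 17.8 and 18.6 CPM in overexpression heads and 13.02, 12.8, 14.01, 12.6 and 12.6 CPM in repo-Gal4 heads.

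**Figure D4:**
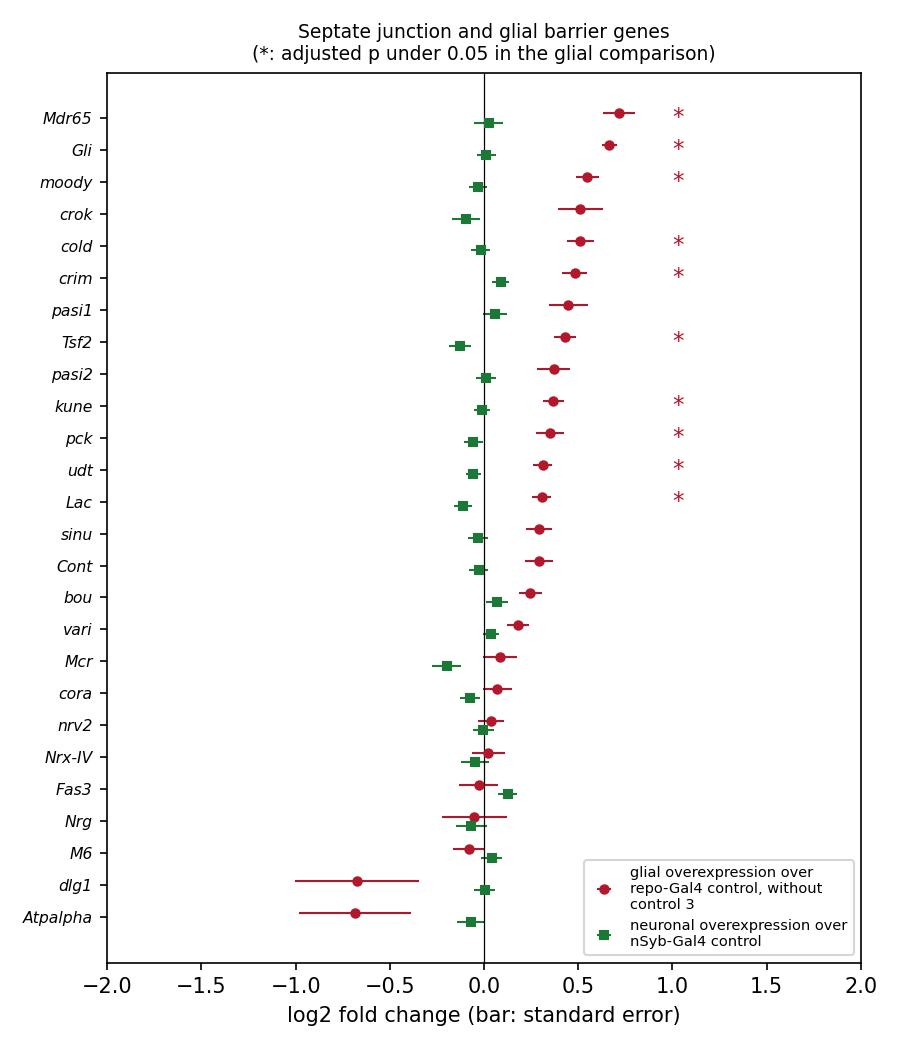
Log2 fold change of 26 septate junction and glial barrier genes in glial overexpression over repo-Gal4 control without control 3 (red circles) and in neuronal overexpression over nSyb-Gal4 control (green squares), with standard errors; stars mark an adjusted p under 0.05 in the glial comparison. The 10 starred genes run from 0.31 to 0.72 in the glial comparison, and their neuronal values lie near 0.

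Neuronal transcripts differed between libraries, not cleanly between groups. Of 20 neuronal markers none was called in either fit. Averaged over the list, log2 CPM was 8.44, 7.65, 6.49, 9.01 and 6.95 in overexpression heads, against 9.16, 9.22, 5.51, 8.48 and 9.11 in repo-Gal4 heads. The pan-neuronal RNA-binding gene elav was at 98.9, 43.3, 15.8, 126 and 23.1 CPM in overexpression heads, against 142, 146, 8.78, 93.3 and 149 CPM in repo-Gal4 heads. These values go with the length slope: repo-Gal4 control 3 and overexpression libraries 5 and 3, the lowest in length slope, were also the lowest in the neuronal list. The median log2 fold change of the list was -0.80 with all libraries, -1.09 without repo-Gal4 control 3 and -1.27 without overexpression library 4. With the length slope as a covariate it was -0.68 over 10 libraries and -0.16 without repo-Gal4 control 3, so that the size of the value depended on which libraries entered and on whether the length slope entered.

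Autophagy is the pathway in which Bchs acts. Of 23 autophagy genes tested none was called in either fit, 0 passed an unadjusted p of 0.05 with all libraries and 1 without repo-Gal4 control 3 (higher), and the median log2 fold change was -0.02 with all libraries and 0.02 without that control. None of the 13 genes of the unfolded protein response, 13 genes of the Draper engulfment pathway by which glia clear debris, 15 genes of lipid storage and synthesis, or 19 genes of the vacuolar proton pump was called in either fit. The same held for 70 nuclear genes of the respiratory chain, 84 of the cytosolic ribosome and 34 of the proteasome. At an unadjusted p of 0.05 in the fit of 10 libraries, the proteasome list had 1 gene (higher), the lipid list 1 (higher) and the other 5 of these lists none, where 6.52% of all genes passed it (3.48% higher, 3.04% lower). In the fit without repo-Gal4 control 3, 18.8% of all genes passed it (11.9% higher, 6.83% lower), as did 11 of 34 proteasome genes, 3 of 15 lipid genes, 2 of 13 engulfment genes and 1 gene each of the unfolded protein response and the ribosome, all of them higher, and none of the respiratory chain or proton pump. In that fit 31 of the 34 proteasome genes and 83 of the 84 ribosomal genes had a log2 fold change above 0, with list medians of 0.15 and 0.19, against 0.01 over all genes. With all 10 libraries 6 of the 34 and 1 of the 84 did, with medians of -0.05 and -0.12, against -0.04 over all genes, so the sign of most members turned with control 3.

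Antimicrobial peptide genes, the effectors of the Toll and Imd pathways, varied from library to library. The mean log2 CPM of 12 genes was 1.502, 0.87, 4.97, 6.49 and 4.93 in overexpression heads, against 0.65, 0.87, 6.07, 0.88 and 0.51 in repo-Gal4 heads. Overexpression libraries 3, 4 and 5 were high, and so was repo-Gal4 control 3. None of the 12 passed the adjusted threshold. At an unadjusted p of 0.05, 0 passed with all libraries and all 12 were higher without repo-Gal4 control 3, where 11.9% of all genes were, with median log2 fold changes of 0.88 and 4.45. Of 27 other immune-induced genes, none was called with all libraries, and BomBc1, a Bomanin peptide of the Toll response, and PGRP-LF, an inhibitor of Imd signalling, were higher without control 3. Over all genes, 2.06% were called higher in that fit. BomBc1 was at 107, 81.9, 262, 105 and 151 CPM in overexpression heads, against 50.3, 42.8, 169.7, 41.9 and 48.2 CPM in repo-Gal4 heads, so the groups overlapped through control 3. PGRP-LF was at 12.9, 11.7, 18.5, 17.9 and 13.7 CPM in overexpression heads, against 9.52, 10.2, 9.69, 8.41 and 9.75 CPM in repo-Gal4 heads. The hemocyte enzyme PPO1, a prophenoloxidase of melanisation, was higher without control 3 (0.99, adjusted p = 0.0195), as 1 of 13 hemocyte markers. Of these 13, 4 had a log2 fold change above 0 in that fit, and the list median was -0.11.

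Some detoxification genes were called. Of 72 cytochrome P450 genes, Cyp6a23 was called with all libraries, at 50.4, 54.5, 50.1, 50.9 and 57.4 CPM in overexpression heads and 32.9, 25.9, 37.1, 29.7 and 34.8 CPM in repo-Gal4 heads (log2 fold change 0.71, adjusted p = 0.0153). Without repo-Gal4 control 3, Cyp6a13 (0.34), Cyp312a1 (0.89) and Cyp301a1 (0.80) were higher as well and Cyp4c3 (-0.39) and Cyp4p1 (-0.55) lower. Of 33 glutathione transferases, which conjugate toxins to glutathione, 3 were higher without control 3 (GstE5, 0.59, GstO1, 0.49, and GstE1, 0.49) and GstD9 was lower (-0.62). Of 23 UDP-glycosyltransferases, Ugt35E2 (-0.62) and Ugt35A1 (-0.52) were lower. None of these glutathione or glycosyl transferases was called with all libraries, where 0.724% of all genes were called. In GstE5, GstO1 and Cyp6a13 repo-Gal4 control 3 (14.5, 10.1 and 36.1 CPM) lay above the highest overexpression library (12.5, 8.31 and 26.9 CPM). In GstE1 it nearly reached it (141.5 against 141.9 CPM). The groups overlapped through control 3 in these genes and in Cyp4p1 and Ugt35E2. They did not overlap in Cyp6a23, Cyp312a1, Cyp301a1, Cyp4c3, GstD9 and Ugt35A1. In the fit without control 3 the calls were thus 6 of 72, 4 of 33 and 2 of 23, against 2.87% of all genes, and the list medians were 0.07, 0.13 and -0.04, against 0.01 over all genes.

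Other head tissues gave few calls, all without repo-Gal4 control 3, where 2.87% of all genes were called (2.06% higher, 0.802% lower). Among 21 photoreceptor genes, Rh5, the blue-sensitive opsin, was higher (0.53, adjusted p = 0.0167) and chp, an adhesion protein of the rhabdomere, lower (-0.31, adjusted p = 0.0156). In both the groups overlapped through repo-Gal4 control 3. It lay above every overexpression library in Rh5 (437 against 304 to 406 CPM). In chp it lay below every one (1423 against 2014 to 2192 CPM). Of the 21 genes, 5 had a log2 fold change above 0, and the list median was -0.05. Among 18 muscle genes Act87E was higher (0.36), whereas 2 of the 18 had a value above 0, the list median was -0.10, and at an unadjusted p of 0.05 6 were lower and 2 higher. Among 12 fat body genes Obp99b was lower, at 14.97, 25.1, 32.9, 23.8 and 49.1 CPM in overexpression heads and 157, 130.0, 32.7, 180.1 and 71.7 CPM in repo-Gal4 heads (-2.20, adjusted p = 0.0170). UAS heads had 4.50, 66.0, 7.12, 6.91 and 18.8 CPM, most of them below every overexpression library. Against UAS heads without UAS control 2, Obp99b had a log2 fold change of 1.66 (edgeR adjusted p = 0.0693), so the 2 control groups lay on opposite sides. The mitochondrial ribosomal gene mRpL50 was higher (0.40, adjusted p = 0.0345), as 1 of 72 tested, of which 58 had a value above 0. In mRpL50 repo-Gal4 control 3 (21.7 CPM) lay above the highest overexpression library (21.0 CPM). None of 9 clock genes, 13 glycolysis genes, 13 mitochondrially encoded genes, 4 Turandot genes or 3 male-biased genes was called in either fit.

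The called genes were spread unevenly over the chromosomes. Of the 78, 35 lie on 3R (44.9%), where 24.6% of the tested genes lie, and 1 lies on X (1.28%), against 16.4% of tested genes. Without repo-Gal4 control 3, 101 of 311 calls lie on 3R (32.5%) and 23 on X (7.40%). No test was made of these shares. Apart from bchs with CG14000 and CG5835 with asRNA:CR44107, which overlap, 7 pairs of called genes are neighbours within 10000 bases, among them antr with CG30486, CG9624 with CG43291 and CG11498 with Rsod. Among the overlapping and neighbouring pairs, only Cpr76Bb with Cpr76Bc and CG13705 with hoka moved in opposite directions.

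**Figure D5:**
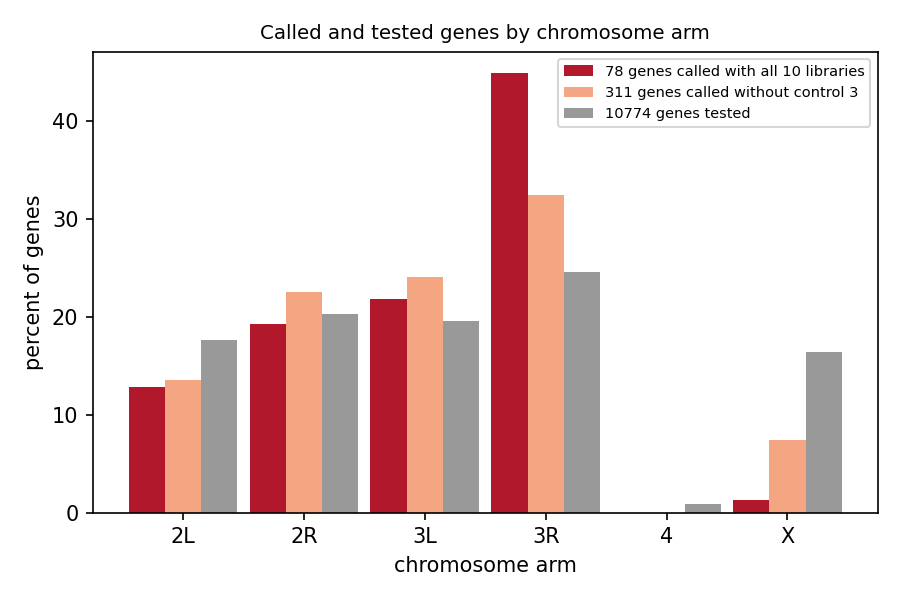
Percent of genes on each chromosome arm among the 78 genes called with all 10 libraries (dark red), the 311 called without repo-Gal4 control 3 (orange) and all 10774 genes tested (grey). Arm 3R holds 44.9%, 32.5% and 24.6%, and X holds 1.28%, 7.40% and 16.4%.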

How the data were processed

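The authors deposited raw counts per gene for each library. STAR, HTSeq and build BDGP6 are named in the submitters' processing notes, without versions, and the use of strand is not given in the sources used here. Per the labels, heads of the glia dataset were homogenised in Trizol before a column kit, unlike those of the neuron dataset, and TruSeq RNA v2 was the library kit. Only rows with FlyBase gene identifiers (17869) entered; counts outside genes were 5.797 to 8.127% of a library. Symbols and Ensembl BDGP6.54 coordinates matched 17790 of them.

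The main test was edgeR 4.0.16's quasi-likelihood F test (R 4.3.3; filterByExpr, TMM, trended dispersion, robust) on 5 against 5 libraries, with Benjamini-Hochberg adjustment over all genes tested. Standard errors follow from the F statistic. The glial minus neuronal difference came from 1 fit of 20 libraries, repo-Gal4 control 3 included. DESeq2 1.42.0 and limma 3.58.1 served as alternatives, and figures used matplotlib 3.10.9. The script was tested on simulated data. No replicate pair agreed within sampling noise (lowest chi-square per degree of freedom 54.1).

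Those named are bchs and w, and then the 10 higher and 10 lower called genes with the largest change (mean of at least 10 counts, groups not overlapping), the 10 with the smallest adjusted p without repo-Gal4 control 3 among genes called in both fits, and called members of gene lists, at most 8 a list; others are said to be named after their values were seen. Members, lists and rules were chosen with earlier results of these data known. Intervals of ratios of counts cover counting error only.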

Additional observations from a re-analysis of the deposited data

Results flagged for a closer look

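In 94 groups of 5 libraries checked for a library far from the rest, 22 flags arose, 16 of them for repo-Gal4 control 3; chance flags about 1 group in 20. Overexpression library 3 was flagged for its 11025 genes with a count, for GILT3 at 2.35 CPM and for Dhc98D at 9.43 CPM. Overexpression library 4 was flagged for lncRNA:CR46123 (0.0889 CPM) and overexpression library 5 for hoka (0.119 CPM), each above a group near 0. repo-Gal4 control 5 held the 1 count of CG14000 in its group (0.0125 CPM). repo-Gal4 control 3 was flagged for its length slope of -0.66. Its levels lay far below the other controls for bchs (36.1 CPM), Gli (37.0 CPM), moody (92.6 CPM), Lac (103.7 CPM) and scb (24.1 CPM). They lay far above the other controls for w (263 CPM), ncd (5.599 CPM), GILT3 (14.8 CPM), asRNA:CR44107 (12.8 CPM), CG5835 (36.5 CPM), stops (225 CPM), pck (41.6 CPM), Tsf2 (60.8 CPM), Reck (14.01 CPM) and Arc1 (103 CPM).

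The effect of overexpression, as log2 fold change over the driver control, differed between the glial and the neuronal driver in 8 of the genes described, by a test of the difference itself. The glial value minus the neuronal one was -1.05 for w, 3.28 for Hsp70Bb, -1.41 for Cpr76Bb, 0.74 for Gli, 1.13 for CG32354, 0.65 for Mdr65, 0.67 for moody and 0.37 for kune. Driver and head preparation are confounded between the 2 datasets, so their parts in these differences cannot be told apart. The level of bchs was not the same either, with means of 1235 CPM in glial and 422 CPM in neuronal overexpression heads. Its log2 fold changes over the driver controls were 2.95 and 2.08, a difference of 0.88 (edgeR adjusted p = 0.653). The part of the bchs level in the other differences was not tested. Over all genes, 52 of 10995 passed this test (0.473%).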

How the results depend on the processing

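The count of 78 changed genes depended on which libraries and which spread entered. Leaving out 1 library in turn gave 29 to 311 genes: 41, 37, 63, 43 and 39 without overexpression library 1 to 5, and 29, 32, 311, 36 and 45 without repo-Gal4 control 1 to 5. The bchs log2 fold change stayed between 2.70 and 3.06 and passed in all 10 of these fits. DESeq2's Wald test called 304 genes (175 higher, 129 lower), the length slope as a covariate 885 (531 and 354), and limma with sample quality weights, which gave repo-Gal4 control 3 a weight of 0.0321, called 2350 (919 and 1431), so that 39.1% of its calls were higher, against 62.8%. An adjusted p of 0.01 left 19. All 78 were called by each of the first 3. Chosen after seeing the data, leaving out both libraries 3 gave 284 genes (76 of the 78), and the length covariate without repo-Gal4 control 3 gave 247 (62 of the 78). DESeq2 size factors (103), no filter on low counts (74), 1 fit of 15 libraries (54) and at least 1.5-fold (71) moved the count by under 1.5 times.

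The deviations of same-numbered libraries were mixed (correlations 0.56, 0.03, 0.49, 0.31 and -0.59 for numbers 1 to 5, with overexpression libraries 1 and 3 closest to their own number), and the labels give no pairing, so no block entered the main test. A replicate block gave 10 genes, 59 without both libraries 3, and a bchs log2 fold change of 3.12 (adjusted p = 0.103). None of the 78 changed sign in these fits. Of genes described that did not pass with all libraries, Nrg was at 0.22 there and -0.05 without repo-Gal4 control 3, and bou at 0.01 and, without repo-Gal4 control 2, -0.03. Depth did not limit genes of more than a few CPM. At under 1 CPM values rest on few counts. ppk20 had 11 to 46 counts per overexpression library and none in repo-Gal4 libraries. antr and CG30486 had 7 to 34 and 7 to 29 counts per repo-Gal4 library, and at most 4 and 3 per overexpression library.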
